A study of Mus musculus with 3 samples.

Results

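The choroid plexus makes cerebrospinal fluid, and 9 genes for the channels, pumps and transporters of that process are described here: Aqp1, Atp1b1, Slc12a2, Slc4a5, Slc4a10, Car12, Kcnj13, Kcne2 and Clic6. They were chosen by symbol, each symbol stood on 1 row, and all 9 were among the 21750 features of a single-cell RNA count matrix. The series holds 3 samples, of which 1 single-cell library was analysed, and the anti-Flag and IgG chromatin samples of primary astrocytes were not analysed here. The library came from hippocampi of 5 pooled mice of genotype Aldh1l1CreERT2;Rosa26-LSL-tdTomato, in which a tamoxifen-inducible Cre under the control of Aldh1l1, a gene used to target astrocytes, switches on the red reporter tdTomato. All mice had received AAV-TIGRi-Hopx, a Cre-dependent virus that carries EGFP and knocks down the homeodomain gene Hopx. Cells were taken 3 weeks after tamoxifen and sorted for tdTomato and EGFP. Cells cannot be traced to single mice, and no library without the knockdown was compared, so the values describe cell types within 1 library and carry no replicate check and no p-value.

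Cerebrospinal fluid is secreted by a cuboidal epithelium, the choroid plexus, which moves sodium, chloride and bicarbonate from blood to ventricle while water follows. Unlike in most epithelia, the sodium pump sits in the membrane that faces the lumen, together with the sodium-potassium-chloride cotransporter NKCC1, potassium channels and the water channel aquaporin 1. Bicarbonate transporters of the Slc4 family on both faces, and carbonic anhydrases, supply and move bicarbonate. The ventricle wall next to the plexus is lined by ciliated ependymal cells, which share an embryonic origin with the plexus epithelium.

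RefSeq promoters, from 250 bases before to 50 after a transcription start on build GRCm38.p6, were matched for 7 of the 9 genes (not for Slc12a2 and Clic6), with 9 starts in all, and they bear on which start regions the genes detected together have. The lines show 5 of the 6 genes that came out nearly restricted to choroid plexus cells, and Slc4a10, which did not. For Kcne2 and Slc4a10, which have 2 starts each, the first is shown. Each is printed 5′ to 3′ on the gene's strand, and capitals mark TAAACA or its complement TGTTTA, the core bound by forkhead factors such as Foxj1.
Kcnj13, chr1:87394680-87394979, minus strand: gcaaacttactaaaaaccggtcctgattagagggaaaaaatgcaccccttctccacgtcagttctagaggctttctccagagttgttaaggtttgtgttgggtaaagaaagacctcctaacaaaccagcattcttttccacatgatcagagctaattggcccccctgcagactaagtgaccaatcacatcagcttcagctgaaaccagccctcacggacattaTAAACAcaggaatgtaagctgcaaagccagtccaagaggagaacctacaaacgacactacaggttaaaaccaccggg
Car12, chr9:66713436-66713735, plus strand: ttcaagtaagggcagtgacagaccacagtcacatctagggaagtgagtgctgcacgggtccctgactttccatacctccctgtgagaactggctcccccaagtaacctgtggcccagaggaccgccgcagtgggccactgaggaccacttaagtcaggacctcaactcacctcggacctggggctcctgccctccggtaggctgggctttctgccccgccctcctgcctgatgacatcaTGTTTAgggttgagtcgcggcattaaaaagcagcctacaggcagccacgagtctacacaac
Aqp1, chr6:55336049-55336348, plus strand: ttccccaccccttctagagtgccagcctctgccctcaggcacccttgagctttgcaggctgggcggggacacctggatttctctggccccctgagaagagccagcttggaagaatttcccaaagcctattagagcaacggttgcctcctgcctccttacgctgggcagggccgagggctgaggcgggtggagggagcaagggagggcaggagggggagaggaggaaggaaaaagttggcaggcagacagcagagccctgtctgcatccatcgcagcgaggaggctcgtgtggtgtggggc
Slc4a5, chr6:83237125-83237424, plus strand: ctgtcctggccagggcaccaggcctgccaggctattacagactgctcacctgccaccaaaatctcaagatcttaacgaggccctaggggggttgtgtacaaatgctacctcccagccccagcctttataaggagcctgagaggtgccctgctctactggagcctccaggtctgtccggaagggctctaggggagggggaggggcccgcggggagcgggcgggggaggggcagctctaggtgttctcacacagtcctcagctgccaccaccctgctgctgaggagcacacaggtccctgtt
Kcne2, chr16:92292139-92292438, plus strand: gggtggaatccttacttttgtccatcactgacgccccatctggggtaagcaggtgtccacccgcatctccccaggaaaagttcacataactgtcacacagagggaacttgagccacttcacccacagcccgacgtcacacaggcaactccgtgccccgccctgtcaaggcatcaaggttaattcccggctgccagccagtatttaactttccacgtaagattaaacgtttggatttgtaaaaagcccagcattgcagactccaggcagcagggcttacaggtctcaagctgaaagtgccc
Slc4a10, chr2:62046265-62046564, plus strand: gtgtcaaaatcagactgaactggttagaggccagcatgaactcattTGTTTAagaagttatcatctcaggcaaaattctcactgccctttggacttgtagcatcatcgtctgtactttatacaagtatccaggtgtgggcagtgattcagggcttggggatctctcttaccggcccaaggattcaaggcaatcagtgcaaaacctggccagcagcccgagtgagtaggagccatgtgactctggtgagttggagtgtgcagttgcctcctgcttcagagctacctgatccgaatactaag

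TAAACA on either strand was found in 3 of the 9 start regions, with 1 match each at Slc4a10, Car12 and Kcnj13, against 13.4% of all 32851 promoters of the same length. Its first base lay 204 bases before the start at Slc4a10, 11 before it at Car12 and 27 before it at Kcnj13. TAATCC, the core bound by Otx2 and related homeodomain factors, was found on either strand in 0 of the 9, against 7.06% of all promoters. The E-box CANNTG was found in 6 of the 9, against 72.3%. These letters are matches in short windows and were not tested as binding sites. Atp1b1 had the start region richest in G and C, at 71.0%, and the other 8 ranged from 43.0% to 62.7%.

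The matrix held 6672 barcodes and 41915122 UMIs (unique molecular identifiers, each counting 1 captured RNA molecule). After filtering, 6224 cells with a median of 5479.5 UMIs remained. Choroid plexus cells were those in which Ttr, the gene for the thyroxine carrier transthyretin, made up at least 5% of UMIs: 597 cells, or 9.59% of the cells, with a median of 10750 UMIs, of which Ttr took a median of 20.4%. All but 4 of them lay in the 2 clusters named choroid plexus-like, and 5 other cells of those clusters lay below the gate. Their label held against other markers: Kl had a UMI in 99.0% of these cells, Folr1 in 98.2%, Enpp2 in 100% and Otx2 in 82.1%, and Calml4, the lowest of the markers by ratio, was 17.0-fold higher than in all other cells. The 12 other named types were defined by clusters and their markers, none of which is among the 9 genes. The gate is on a plexus gene in a hippocampal sort aimed at astrocytes, and only 139 astrocyte-like cells were found. Choroid plexus cells had 6 EGFP UMIs in 6 cells, and 83 of the 597 had a UMI of either reporter.

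All 9 genes were far higher in choroid plexus cells than in all other cells pooled. The pool is weighted by UMIs. Microglia-like cells brought 16949289 and endothelial-like cells 5925936 of the 39092951 UMIs in the cells analysed. Against single types, Slc12a2 and Slc4a10 were each highest in another type, and the other genes in choroid plexus cells. Atp1b1 was only 1.25-fold above fibroblast-like cells. Of the 32075 UMIs of the 9 genes, 27987 (87.2%) came from choroid plexus cells, which held 17.2% of all UMIs. All 9 passed a rule of at least 4-fold higher with at least 20 CPM (counts per 1000000 UMIs, summed over the cells of a group), which 6.47% of the 8332 features tested passed. Their median log2 ratio was 8.37, against -0.97 over all features tested. Against the 618 ependymal-like cells all 9 passed as well, where 4.51% of 8530 features did, with a median log2 ratio of 6.46 against -1.14. A further 32.1% of features were at least 4-fold lower in choroid plexus cells than in all other cells, and 32.2% than in ependymal-like cells.

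**Figure D1:**
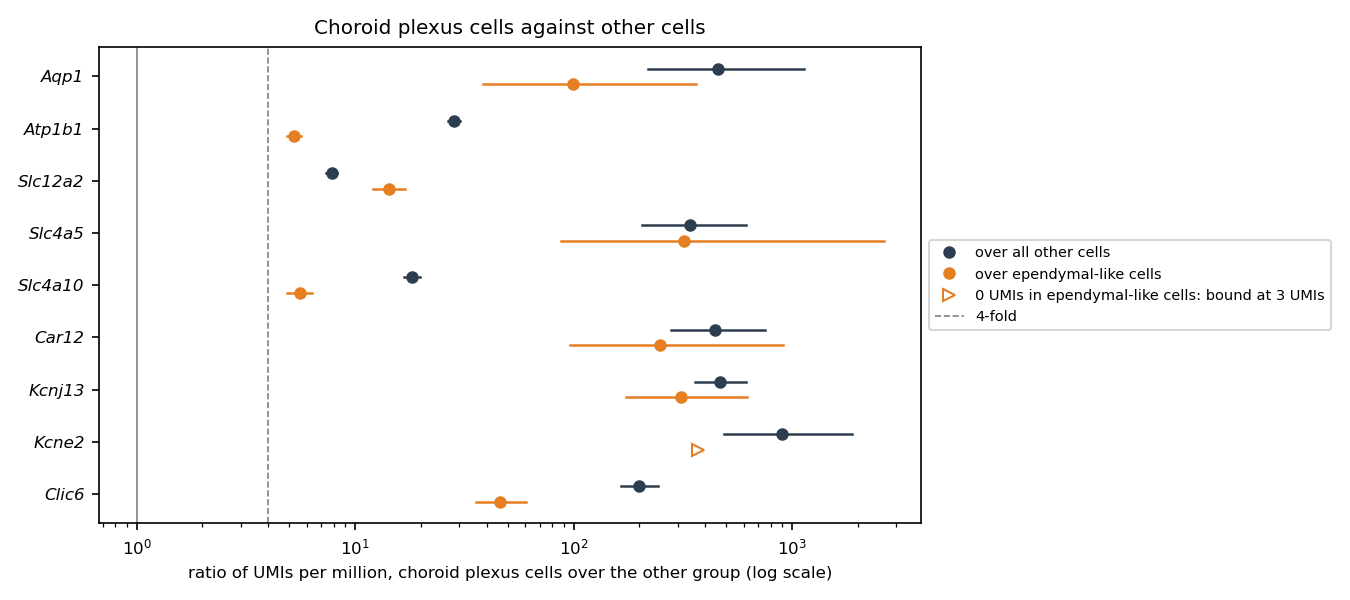
Ratio of CPM in 597 choroid plexus cells over all other cells and over 618 ependymal-like cells, on a log axis, with exact 95% intervals that cover counting error. All points lie right of the 4-fold line, Slc12a2 at 7.82-fold over all other cells and Atp1b1 at 5.24-fold over ependymal-like cells being the nearest to it in each comparison, and the open triangle is a bound for Kcne2, which had 0 UMIs in ependymal-like cells.

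The genes divided into 6 with 97.6% to 99.5% of their UMIs in choroid plexus cells (Aqp1, Slc4a5, Car12, Kcnj13, Kcne2 and Clic6) and 3 that other cells also carried (Atp1b1, Slc4a10 and Slc12a2). Ttr, which set the gate and so stays under 5% in cells outside it, stood between 183 and 285 CPM in each of the 12 other types, against 211555 CPM in choroid plexus cells. The gate took 4 cells out of clusters of other types. With a gate of 10%, which puts 36 of the plexus cells among the others, the ratios to all other cells (with 0.5 UMI added) were 191 for Aqp1, 114 for Slc4a5, 122 for Car12, 119 for Kcnj13, 103 for Kcne2 and 59.0 for Clic6, against 427, 332, 433, 463, 856 and 198 for the same genes in that order at 5%, so the ratios of these 6 genes depend on the gate.

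**Figure D2:**
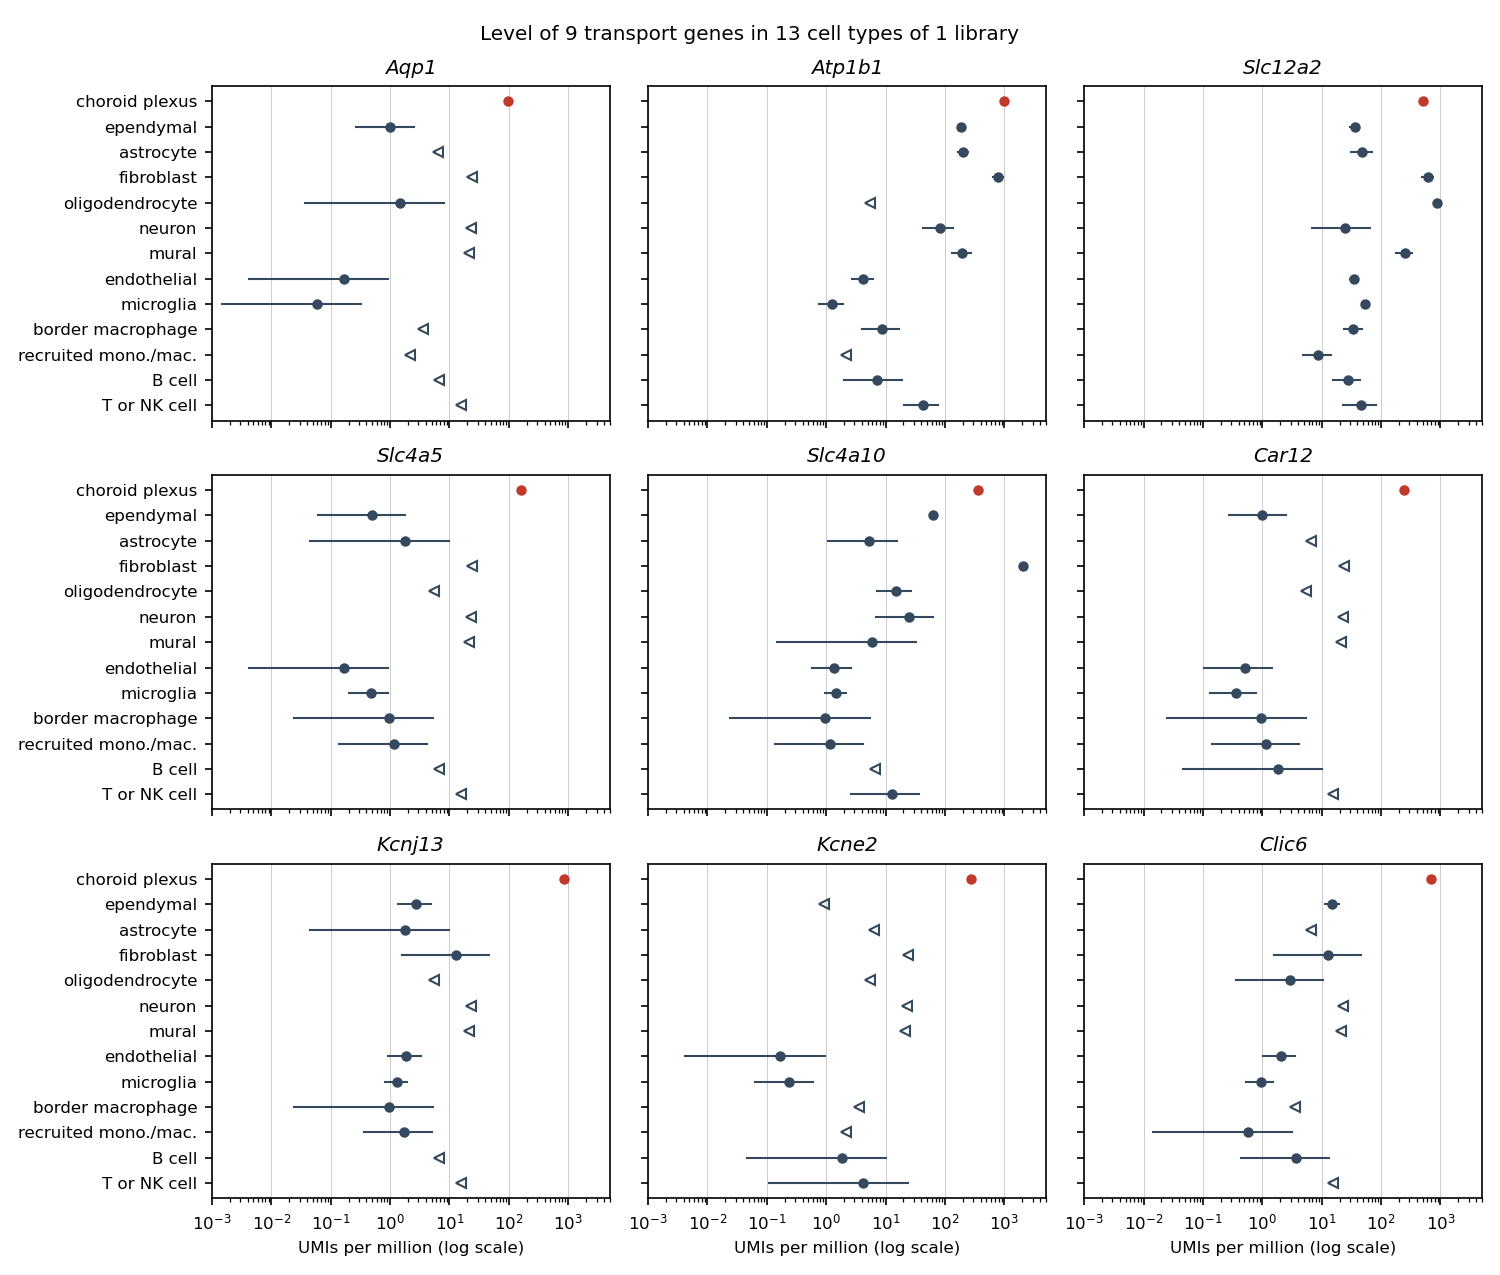
CPM of each gene in 13 cell types, on a log axis, with choroid plexus cells at the top in red and exact Poisson 95% intervals. Open triangles mark the upper limit where a type had 0 UMIs. Slc12a2 was highest in oligodendrocyte-like cells and Slc4a10 in fibroblast-like cells, and the other 7 genes were highest in choroid plexus cells.

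Aqp1 encodes aquaporin 1, the water channel of the membrane facing the ventricle. It was at 98.7 CPM in choroid plexus cells (95% interval 91.3 to 106.5, 662 UMIs), against 0.216 CPM in all other cells (7 UMIs), a ratio of 457 (220 to 1140). The 7 outside UMIs were 4 in ependymal-like cells and 1 each in oligodendrocyte-like, endothelial-like and microglia-like cells. The low level limits what a single cell shows: 58.0% of choroid plexus cells had an Aqp1 UMI, and 18.4% after each cell was thinned to 2000 UMIs, against 0.696% of thinned ependymal-like cells. The astrocyte water channel Aqp4 ran the other way, at 2.98 CPM in choroid plexus cells and 507 CPM in ependymal-like cells, with 1287 CPM in astrocyte-like cells.

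Atp1b1 encodes the beta 1 subunit of the sodium pump, which carries the catalytic alpha subunit to the membrane. Its level was 986 CPM in choroid plexus cells (963 to 1010.5), 789 in fibroblast-like cells (655 to 942), 201 in astrocyte-like cells (165.5 to 241), 192 in mural-like cells (132 to 270) and 188 in ependymal-like cells (175 to 202). Choroid plexus cells stood 1.25-fold (1.05 to 1.51) above the 35 fibroblast-like cells, and the values of astrocyte-like, mural-like and ependymal-like cells did not differ beyond their intervals. The mural-like value rests on 33 UMIs in 9 of 61 cells. Microglia-like cells had 21 UMIs, or 1.24 CPM, and oligodendrocyte-like cells 0, where 3 UMIs would be 4.45 CPM. In the RefSeq annotation Atp1b1 overlaps Nme7, which was at 29.1 CPM in choroid plexus cells, 94.2 in ependymal-like cells and 130 in astrocyte-like cells. How reads from the overlap were counted was not examined.

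Of the other genes of the sodium pump, the beta 2 gene Atp1b2 was at 36.5 CPM in choroid plexus cells, against 206 in ependymal-like cells. Fxyd1, which encodes the pump regulator phospholemman, was at 1175 CPM in choroid plexus cells and 58.3 in all other cells. The ratio was 20.1 (19.2 to 21.2). Among single types, Fxyd1 was at 715 CPM in astrocyte-like cells, 318.5 in ependymal-like cells and 250 in mural-like cells.

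Slc12a2 encodes NKCC1, which moves sodium, potassium and chloride together. It was the least plexus-restricted of the 9, with 61.8% of its UMIs in choroid plexus cells. Choroid plexus cells were at 509.8 CPM (493 to 527) and stood below oligodendrocyte-like cells at 886 (817 to 960) and fibroblast-like cells at 608 (491 to 744). Choroid plexus cells were thus at 0.575 (0.527 to 0.628) of the oligodendrocyte-like level, and the intervals of choroid plexus and fibroblast-like cells overlapped. Mural-like cells were at 250 CPM (181 to 337), from 43 UMIs in 13 of 61 cells. That cluster also carried endothelial RNA, with Cldn5 at 1450 CPM and Flt1 at 1869 CPM, whose part in the value was not tested. Endothelial-like cells themselves had Slc12a2 at 34.4 CPM (29.9 to 39.5), below the mural-like interval. Microglia-like cells had a low level spread over many cells: 54.1 CPM (50.7 to 57.7) from 917 UMIs, with a UMI in 26.7% of 2562 cells. That is 105 times (97.8 to 113) what the plexus ratio of Slc12a2 to Ttr would give from the Ttr UMIs of those cells.

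The kinase gene Stk39, whose product SPAK switches NKCC1 on by phosphorylation, was at 452 CPM in choroid plexus cells and 31.3 in all other cells, a ratio of 14.4 (13.4 to 15.5), and reached 1274 CPM in fibroblast-like cells. Its upstream kinase gene Wnk1 was 0.154 (0.1395 to 0.169) of the other cells' level, at 64.7 CPM in choroid plexus cells and 420.5 in all other cells.

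Slc4a5 encodes the sodium-bicarbonate cotransporter NBCe2 of the membrane facing the ventricle. It was at 158.6 CPM in choroid plexus cells (149 to 168.5, 1064 UMIs), against 0.463 CPM in all other cells (15 UMIs), a ratio of 342 (207 to 614). Its outside UMIs were 8 in microglia-like cells, 2 each in ependymal-like and recruited monocyte- or macrophage-like cells and 1 each in 3 other types.

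Slc4a10, for the sodium-driven bicarbonate transporter of the blood-facing membrane, was at 355 CPM in choroid plexus cells (341 to 370), against 19.5 in all other cells, a ratio of 18.2 (16.7 to 19.9). Its highest level was in the fibroblast-like cells, at 2043 CPM (1824 to 2281), with a UMI in 32 of these 35 cells. Though left out of the clustering, Slc4a10 was a leading gene of their sub-cluster. That ranking was only against the rest of the same cluster, which carried microglial RNA. Choroid plexus cells were at 0.174 (0.155 to 0.196) of the fibroblast-like level. Ependymal-like cells came next, at 63.7 CPM (56.1 to 71.9). Microglia-like cells had 1.47 CPM and endothelial-like cells 1.35.

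The fibroblast-like cells came from a cluster of 72 cells whose other sub-cluster carried microglial RNA, and they were taken as the sub-cluster with the fibroblast markers, a step chosen after the data were seen. Prg4, also a leading gene of this sub-cluster, was at 1131 CPM in 21 of the fibroblast-like cells. Slc47a1, a leading gene of the whole cluster, was at 795 CPM in 28 of them, so the name rests on the marker list alone. In the whole cluster, without cells at the Ttr gate, Slc4a10 was at 1133 CPM, Atp1b1 at 437.5 and Slc12a2 at 348, the last below the choroid plexus level. Aqp1, Slc4a5, Car12 and Kcne2 each had 0 UMIs in the fibroblast-like cells, where 3 UMIs would be 19.4 CPM.

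**Figure D3:**
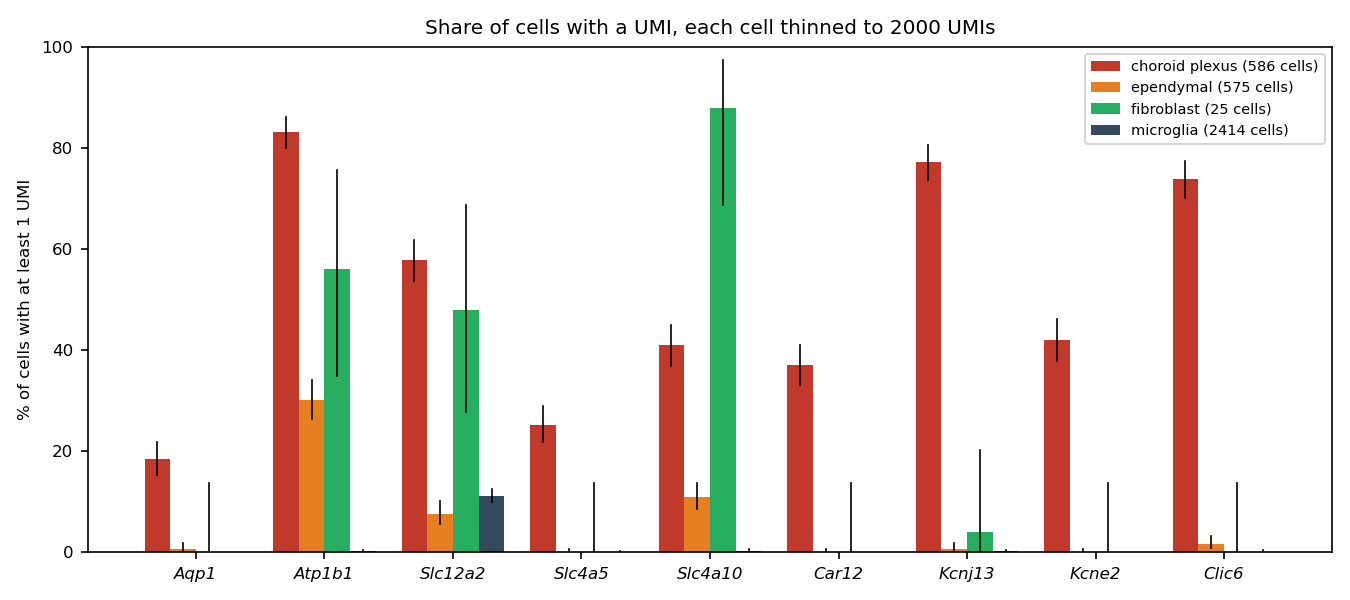
Share of cells with at least 1 UMI after each cell was thinned to 2000 UMIs, with exact 95% intervals, for choroid plexus, ependymal-like, fibroblast-like and microglia-like cells. Slc4a10 was seen in 41.0% of 586 choroid plexus cells and 88.0% of 25 fibroblast-like cells, and in microglia-like cells Slc12a2 reached 11.2%, the other 8 genes at most 0.331%.

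Car12 encodes a membrane-bound carbonic anhydrase whose active site faces outward. It was at 247 CPM in choroid plexus cells (235 to 259, 1657 UMIs), against 0.556 CPM in all other cells (18 UMIs), a ratio of 445 (280 to 752). Of the other carbonic anhydrase genes, the membrane-bound Car14 was at 269 CPM in choroid plexus cells and 12.9 in all other cells. The ratio was 20.9 (18.8 to 23.3). Car14 was not particular to the plexus, with 297 CPM in fibroblast-like cells (218 to 397) and 170.5 in oligodendrocyte-like cells. The cytosolic Car2 was at 574 CPM in choroid plexus cells and 74.1 in all other cells, and oligodendrocyte-like cells carried 2638 CPM of it. Car4, known from brain capillaries, had 3 UMIs in choroid plexus cells, or 0.447 CPM, and 446 CPM in endothelial-like cells.

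Among the bicarbonate genes of the same family, Slc4a2, an anion exchanger of the blood-facing membrane, was at 247 CPM in choroid plexus cells and 21.2 in all other cells, a ratio of 11.7 (10.7 to 12.8). Slc4a4, the astrocyte sodium-bicarbonate cotransporter, was at 2.39 CPM in choroid plexus cells and 1773 in astrocyte-like cells. Slc4a7 was at 11.0 CPM in choroid plexus cells and 48.3 in all other cells.

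Kcnj13 encodes Kir7.1, an inward rectifier that returns potassium across the membrane. It was at 851 CPM in choroid plexus cells (829 to 873, 5706 UMIs), against 1.82 CPM in all other cells (59 UMIs), a ratio of 467 (361.5 to 614). A UMI was found in 98.7% of choroid plexus cells and in 0.820% of microglia-like cells, with median depths of 10750 and 6347.5 UMIs. In the RefSeq annotation Kcnj13 lies within Gigyf2, which was at 43.8 CPM in choroid plexus cells, 81.1 in ependymal-like cells and 58.4 in microglia-like cells, so the 2 genes were distributed differently. Kcnj10, the inward rectifier of glia, had 1 UMI in choroid plexus cells, against 128 CPM in ependymal-like cells. The leak channel gene Kcnk1 was at 317 CPM in choroid plexus cells and 17.7 in all other cells, a ratio of 18.0 (16.4 to 19.7). Astrocyte-like cells were much closer, at 250 CPM of Kcnk1 (211 to 295), and ependymal-like cells were at 99.0.

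Kcne2 encodes a single-span subunit that modifies potassium channels. It was at 277 CPM in choroid plexus cells (265 to 290, 1860 UMIs), against 0.309 CPM in all other cells (10 UMIs), a ratio of 898 (487 to 1876). Ependymal-like cells had 0 UMIs in 618 cells, which makes the choroid plexus level at least 372-fold higher with 3 UMIs set over that group (the exact 95% lower bound is 302-fold). It allows a share of up to 0.485% of ependymal-like cells with a UMI by the same 3 counts, or 0.595% by the Clopper-Pearson limit. The pore subunits it is known to join in mouse choroid plexus were scarce: Kcnq1 had 13 UMIs in choroid plexus cells, or 1.94 CPM (1.94 against 18.2 CPM in ependymal-like cells), and Kcna3 had 0, where 3 UMIs would be 0.447 CPM. Kcne1, Kcne3 and Kcne4, of the same family, had 0, 0 and 1 UMIs in choroid plexus cells.

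Clic6 encodes a member of the intracellular chloride channel family. It was at 689 CPM in choroid plexus cells (669 to 709, 4620 UMIs), against 3.46 CPM in all other cells (112 UMIs), a ratio of 199 (165 to 242). Of the 6 nearly restricted genes it had the most UMIs in ependymal-like cells, 60 UMIs in 39 cells, or 14.9 CPM (11.4 to 19.2). Its relatives went both ways. Clic4 was at 10.3 CPM in choroid plexus cells and 625 in all other cells, and Clic5 at 2.53 in choroid plexus cells and 87.5 in all other cells. Clic3, named after its values were seen, was at 53.5 CPM in choroid plexus cells and 0.957 in all other cells, a ratio of 55.9 (38.7 to 83.5). Clic6 and Kcne2 lie on chromosome 16 with 5 protein-coding genes between them in RefSeq (Smim11, Fam243, Smim34, Kcne1 and Rcan1). In choroid plexus cells these were at 181 CPM for Smim11, 0.149 for Fam243, 1.64 for Smim34, 0 for Kcne1 and 19.5 for Rcan1, and Rcan1 was at 919 CPM in microglia-like cells.

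Over the lists of related genes, 42 of 72 were tested, of which 12 were at least 4-fold higher and 12 at least 4-fold lower in choroid plexus cells than in all other cells, against 6.47% and 32.1% of all features tested. Their median log2 ratio was close to 0 (-0.00036), against -0.97 over all features. The sodium pump list had 1 higher (Fxyd1) and 0 lower of 5 tested. The bicarbonate and acid-base list had 3 higher and 3 lower of 7, the cation-chloride cotransport list 1 higher and 3 lower of 6, and the potassium channel list 1 of each of 2. Chloride channels had 1 higher and 4 lower of 9, including Ttyh1 at 6.41 CPM and Ano6 at 23.1 CPM in choroid plexus cells. Among water and cation channels 1 was higher and 1 lower of 4. The cation channel gene Trpm3 was at 819 CPM in choroid plexus cells and 19.2 in all other cells, and Aqp4 was lower. Trpm3 was also at 435 CPM in astrocyte-like cells and 252 in fibroblast-like cells. Other solute carriers had 4 higher and 0 lower of 9, among them the lactate carrier gene Slc16a8 at 224.5 CPM in choroid plexus cells and 0.278 in all other cells, and the sulfate carrier gene Slc13a4 at 210 in choroid plexus cells and 2.47 in all other cells. Wnk2, of the cotransport list, was lower, at 7.01 CPM in choroid plexus cells and 33.6 in all other cells.

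How far the scattered UMIs outside the plexus follow Ttr was measured as the count expected from a cell type's Ttr UMIs at the plexus ratio. In microglia-like cells Kcnj13 had 22 UMIs, against 14.5 expected, Clic6 16 against 11.8, Car12 6 against 4.22, Kcne2 4 against 4.74 and Aqp1 1 against 1.69, and the intervals of these ratios all included 1. Slc4a5 had 8 against 2.71, a ratio of 2.95 (1.27 to 5.84). In ependymal-like cells Clic6 exceeded that count 17.7-fold (13.5 to 22.8), Aqp1 8.23-fold (2.24 to 21.2, 4 UMIs) and Kcnj13 2.63-fold (1.31 to 4.70, 11 UMIs), and the intervals of Slc4a5, Car12 and Kcne2 included 1. An interval that includes 1 on so few UMIs does not show that they are background. The excess of Slc4a5 in microglia-like cells and of Aqp1 and Kcnj13 in ependymal-like cells rests on 8, 4 and 11 UMIs. In endothelial-like cells Clic6 was 2.24-fold (1.155 to 3.91, 12 UMIs) the expected count. In fibroblast-like cells Kcnj13 was 14.6-fold (1.77 to 52.9) and Clic6 18.1-fold (2.19 to 65.3), on 2 UMIs each. Slc4a5 was 8.41-fold (1.02 to 30.5, 2 UMIs) in recruited monocyte- or macrophage-like cells. In the remaining types the other intervals of the nearly restricted genes included 1.

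The ependymal-like cells formed 2 clusters, and for 2 of the 9 genes the counting interval of the ratio between them excluded 1. Clic6 was at 30.2 CPM in cluster 4 (161 cells), against 7.69 CPM in cluster 3 (457 cells), a ratio of 3.94 (2.26 to 7.04). Slc4a10 ran the other way, at 35.7 CPM in cluster 4 and 76.9 in cluster 3, a ratio of 0.464 (0.330 to 0.641). Ttr was 1.56-fold (1.38 to 1.77) higher in cluster 4. The intervals of the other genes with UMIs in both clusters included 1. All these intervals leave out the spread between cells. The genes were left out of the clustering.

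Within the plexus, most cells carried most of the genes. The median choroid plexus cell had a UMI of 8 of the 9, 226 cells (37.9%) had all 9, and 95.1% had at least 5. Of the 618 ependymal-like cells 2 had at least 5, and in each of the other 11 types 0 cells had. After thinning to 2000 UMIs the median was 4 of 9 in 586 choroid plexus cells and 0 in 575 ependymal-like cells.

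Thinned to 2000 UMIs, plexus cells had mean counts of 0.203 (Aqp1) to 1.99 (Atp1b1) per gene. The variance over the mean is 1 for pure counting, and a lower mean count holds it closer to 1 for the same spread between cells. It was 0.984 for Aqp1, 1.13 for Kcne2, 1.14 for Slc4a5 and 1.15 for Car12. Kcnj13, with a mean count of 1.71, had the highest value, at 1.37. Correlations between pairs of the genes over these 586 cells, which share a library and a thinned depth, ran from -0.064 (Aqp1 and Kcne2) to 0.203 (Slc12a2 and Slc4a10). At these sparse counts they are given as a description.

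The genes' levels differed with how much of a cell's RNA was Ttr. From 36 cells with 5 to 10% Ttr, over 249 with 10 to 20% and 253 with 20 to 30%, to 59 with 30% or more, Kcnj13 was at 564, 727, 927 and 1137 CPM, and Atp1b1 at 621, 866, 1074.5 and 1246 CPM. Aqp1 was at 31.7 CPM (15.2 to 58.2) in the lowest bin, and at 86.8, 112 and 117 CPM in the next 3. Clic6 ran the other way, at 839, 738, 652 and 587 CPM, and per 1000000 UMIs other than Ttr it was level, at 914, 879, 863 and 876. Median depth was 9049, 10841, 11224 and 9856 UMIs in the 4 bins. Just inside the gate, at 5 to 6% Ttr, 6 cells had 30 Clic6 and 17 Kcnj13 UMIs, and just outside, at 4 to 5%, 3 cells had 6 of each.

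**Figure D4:**
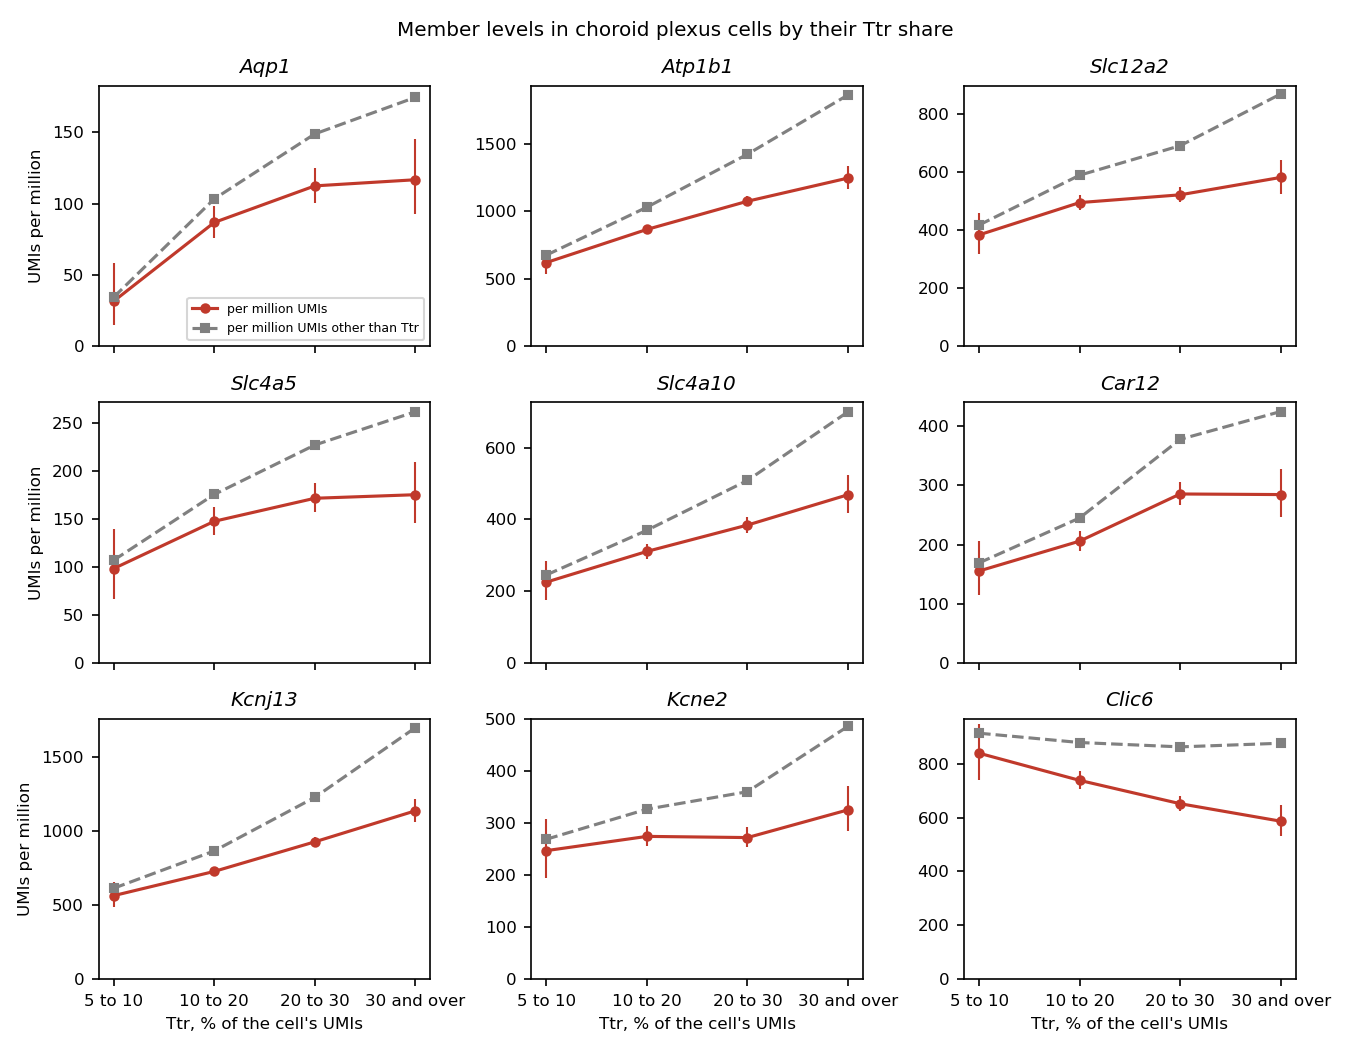
CPM of each gene in choroid plexus cells by the share of Ttr among the cell's UMIs (36, 249, 253 and 59 cells), with exact Poisson 95% intervals. Grey squares are per 1000000 UMIs other than Ttr. Clic6 was at 839 CPM in the lowest bin and 587 in the highest, and the other 8 genes were higher in the highest bin than in the lowest, with intervals that overlap for Kcne2.

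The plexus cells formed 2 clusters, and cluster 16 (39 cells) had a median of 22153 UMIs, against 10306 in the gated cells of cluster 9 (554 cells). Slc4a10 differed most, at 694 CPM in cluster 16 and 302.5 in cluster 9, a ratio of 2.29 (2.09 to 2.52). Slc4a5 was 1.58-fold (1.35 to 1.85), Slc12a2 1.54-fold (1.41 to 1.67), Kcne2 1.42-fold (1.25 to 1.60), Atp1b1 1.32-fold (1.24 to 1.41) and Car12 1.27-fold (1.11 to 1.46) higher in cluster 16. Kcnj13 (0.957, 0.883 to 1.04), Clic6 (0.991, 0.907 to 1.08) and Aqp1 (1.14, 0.907 to 1.42) had intervals that included 1. The intervals of these ratios cover counting error only, not the spread between cells. The leading genes of cluster 16 included Trpm3, 7.09-fold (6.72 to 7.48) higher, and the serotonin receptor gene Htr2c, 5.26-fold (4.90 to 5.65). Ttr was 1.18-fold higher, mitochondrial UMIs had a median of 4.84% in cluster 16 and 3.63% in cluster 9, and the part of depth in these ratios was not tested. Over all choroid plexus cells by depth, Slc4a10 was at 294 CPM in the 149 shallowest cells and 296 in the next 149. It was at 329 CPM in the following 149 and at 416 in the 150 deepest. Those deepest cells had a median of 17029.5 UMIs and include cells of cluster 16, with its median of 22153. Depth was not examined with cluster 16 left out, so these levels do not separate depth from cluster.

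Plexus cells with a reporter UMI were set beside those without. Slc12a2 was at 401 CPM in the 83 cells with a reporter UMI, against 525 in the 514 without, a ratio of 0.763 (0.679 to 0.855). Slc4a5 had a ratio of 0.746 (0.601 to 0.917) and Slc4a10 of 0.802 (0.699 to 0.917), and the intervals of the other 6 included 1. Hopx, the knockdown target, was at 344.5 CPM in cells with a reporter UMI and 330 in cells without (ratio 1.04, 0.918 to 1.18). Of the 83 cells, 77 had a tdTomato UMI and 6 an EGFP UMI, and EGFP is what the knockdown virus carries, so plexus cells in which the virus itself was seen were few. A tdTomato UMI was also found in 36 of 1458 endothelial-like and 21 of 2562 microglia-like cells. Cells with a reporter UMI were shallower, with a median of 9123 UMIs and 2.61% mitochondrial UMIs, against 11115.5 and 3.81% in cells without, and the part of these in the ratios was not tested. Within cluster 9 the same 3 genes had intervals below 1, and Clic6 also (0.896, 0.813 to 0.986). All these intervals cover counting error only, and leave out the spread between cells. Over thinned plexus cells the variance over the mean was 1.34 for Slc12a2, 1.30 for Slc4a10, 1.14 for Slc4a5 and 1.16 for Clic6. An interval that excludes 1 therefore does not decide whether the groups of cells differ.

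**Figure D5:**
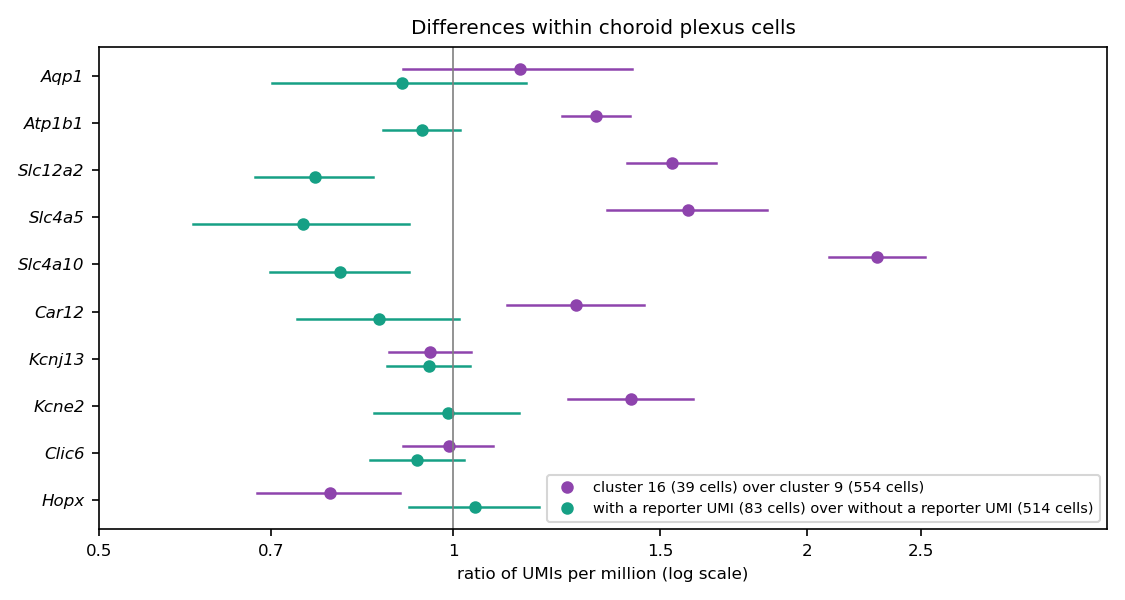
Ratios within choroid plexus cells, on a log axis with exact 95% intervals that cover counting error only: cluster 16 over cluster 9, and cells with a reporter UMI over cells without. Slc4a10 was 2.29-fold in the first and 0.802 in the second, and Hopx was 0.785 in the first and 1.04 in the second.

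Some genes had patterns over the 13 types close to those of the 9, by Pearson correlation of log2(CPM + 1), a description in which the types share a library and differ in depth. The 3 nearest to Aqp1 were Cltrn (0.988), Wdr86 (0.983) and Sult1c2 (0.980), and the nearest to Car12 were Slc16a8 (0.989), Tmem72 (0.981) and Oca2 (0.974). Kcne2 was nearest to Slc16a8 (0.9497), Rd3l (0.947) and Defb11 (0.946), Slc4a5 to Ins2 (0.973), Pla2g5 (0.968) and Defb11 (0.968), Kcnj13 to Cul4b (0.948), Cox8b (0.920) and Sult1c2 (0.919), and Clic6 to Anapc13 (0.925), Vpreb1a (0.906) and Myo5b (0.904). The 3 shared genes had other neighbours. Slc12a2 lay nearest to Bmp4 (0.913), Pdgfra (0.884) and Zfp771 (0.878), Slc4a10 to Slc5a6 (0.929), Il17re (0.900) and Npr3 (0.899), and Atp1b1 to Gpx8 (0.980), Gstt1 (0.951) and Arhgef17 (0.923). Among the 9 themselves, Slc4a5 and Car12 had the highest correlation (0.954), and Slc12a2 and Car12 the lowest (0.256).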

How the data were processed

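Per the submitters' processing notes, the authors made the deposited UMI counts per gene and barcode with Cell Ranger 8.0.1 on GRCm39. The annotation used is not given in these sources. Levels are compared within a gene only. Barcodes with at least 500 genes and at most 15% mitochondrial UMIs (6485) were kept, and 261 doublets (4.02%, Scrublet, expected rate 0.05) were removed. Cells were clustered with scanpy 1.11.5 and igraph 0.11.9 (2000 variable genes without the 9 genes, the related genes and the reporters, 30 components, 15 neighbours, Leiden resolution 1), which gave 24 clusters. Clusters were named from marker lists, with the naming rule set after the clusters were seen. The 81 cells of an unnamed cluster, the microglial sub-cluster and the plexus clusters below the gate count among all other cells only. An endothelial-like cluster had the neuron marker Stmn2 among its 10 leading genes.

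UMIs were summed per cell type and divided by the type's total. Ratios have exact binomial, levels exact Poisson and shares Clopper-Pearson 95% intervals (scipy 1.17.1), which cover counting error only. Log2 ratios use sums with 0.5 UMI added, and a sum of 0 was set to 3 UMIs over the group for bounds. Called features have at least a 4-fold ratio and 20 CPM in the higher group. The calculation was tested on simulated data. The genes and the 72 related genes were chosen with earlier results of these data known. All 9 genes are named. Of the related genes, those at least 4-fold higher with at least 100 CPM in choroid plexus cells or at least 4-fold lower are named, with direct partners and neighbours, and for each of the 9 the 3 genes most alike over types. Some genes that this rule selects are not reported here.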

Additional observations from a re-analysis of the deposited data

How the results depend on the processing

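All 9 genes were at least 4-fold higher in choroid plexus cells with Ttr gates of 2% and 10%, with doublets kept and with cells weighed equally. The same held for a filter of at least 1000 genes and at most 5% mitochondrial UMIs, and for a total without Ttr and mitochondrial UMIs. It also held for a gate, chosen after seeing the data, that also asks for a choroid plexus-like cluster. A fold of at least 2 and no minimum level only loosen the rule. Per-cell marker gates change neither the choroid plexus cells nor the pool of all other cells. The count of 9 could therefore not fall in these last runs. The number of features called, 539 as reported, was 822 on the total without Ttr and mitochondrial UMIs, 1277 at a fold of at least 2 and 1024 with no minimum level. The genes' median log2 ratio, 8.37 as reported, was 6.69 with the 10% gate, where plexus cells below the gate count among the others, and 7 of the 9 ratios to all other cells moved beyond their counting intervals, all downward. Over these settings the ratio to all other cells was lowest at 6.99 and highest at 10.3 for Slc12a2, and at 103 and 1190 for Kcne2, and the ratio to ependymal-like cells was at 4.39 and 7.29 for Slc4a10. Slc12a2 was highest in oligodendrocyte-like cells and Slc4a10 in fibroblast-like cells under each of the 8 settings that give a level for every type. The fibroblast-like level of Slc4a10 was 1112 CPM with doublets kept and 1133 CPM in the whole cluster, against 2043 as reported. Subtracting the part at the plexus ratio to Ttr moved 11 of 108 levels beyond their counting interval. Thinning moved all 9 shares of choroid plexus cells with a UMI. No paired analysis was possible because only 1 library was analysed. Depth limits Aqp1 and Slc4a5, each with a median of 1 UMI per choroid plexus cell, and the 33 to 61 cells of the neuron-like, fibroblast-like, T or NK cell-like and mural-like groups set wide limits on counts of 0.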
